A study of Mus musculus with 12 samples.

Results

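The MHC class I presentation genes described here are Nlrc5, B2m, H2-K1, H2-D1, H2-T23, Tap1, Tap2, Tapbp and Erap1. They were taken by name as genes of 1 pathway, by a rule that uses no measured value, and all 9 are among the 15651 genes of the deposited expression table. Every one of the 9 passed the filter on low values in each comparison below.

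MHC class I molecules carry peptides from proteins made inside a cell to its surface, where CD8+ T cells read them and NK cells sense their loss. The proteasome cuts the peptides, the Tap1 and Tap2 transporter moves them into the endoplasmic reticulum, Erap1 trims them, and Tapbp (tapasin) holds the transporter to the empty heavy chain, which is paired with the light chain B2m. Nlrc5 is a transactivator of the heavy chain genes, B2m and Tap1 and works through the RFX, CREB/ATF and NFY factors on boxes shared by class I promoters, and interferons raise the whole pathway. In acute myeloid leukemia (AML), loss of these molecules is a known route of escape from T cells.

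The RNA came from c-Kit+ splenocytes of moribund AML mice, enriched with CD117 microbeads and cultured with SCF, IL6 and IL3. D/F cells were Dnmt3afl/fl,Flt3ITD/ITD,Mx1Cre and T/F cells were Tet2fl/fl,Flt3ITD/ITD,Mx1Cre, so both carried the internal tandem duplication in Flt3 and an interferon-inducible Cre. By the study's methods no mouse had received pIpC, the usual inducer of this Cre, and deletion of the floxed gene was spontaneous and could concern 1 or both alleles. Cells of each of 3 mice per genotype were split between DMSO and CCS1477, an inhibitor of the bromodomains of the histone acetyltransferases p300 and CBP, for 6 hours, which gave 12 libraries in 4 groups of 3. The dose of CCS1477 was 4 µM in D/F and 2 µM in T/F cells, so genotype and dose cannot be told apart in any comparison of the responses. Values are TPM, a level per transcript length relative to all transcripts of a library. No spike-in is recorded, and in bulk RNA fewer cells of a type and less RNA per cell cannot be told apart.

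The libraries held the markers of immature myeloid cells, with Mpo, Elane, Prtn3, Ctsg, Kit, Cd34, Flt3, Myb and Meis1 summing to 4166 to 10390 TPM in DMSO-treated D/F cells and to 4456 to 6661 TPM in DMSO-treated T/F cells. With CCS1477 these sums were 985 to 4388 and 1830 to 3138 TPM, and 7 of the 9 genes fell over both genotypes (8 with the mouse as a block), where 19.6% of all genes fell (25.9% with the block). The 8 monocyte, macrophage and dendritic cell markers in the table summed to 553 to 1340 TPM (D/F) and 572 to 751 TPM (T/F) with DMSO and to 167 to 575 and 199 to 306 TPM with CCS1477, and 7 of the 8 fell, Ccr2, Csf1r and Adgre1 having the lowest p. Of the NK cell markers Nkg7 and Klrd1 fell and Klrb1c did not pass. They summed to 72.8 to 162 TPM in DMSO and 6.50 to 26.9 TPM in CCS1477 libraries of both genotypes. Nkg7 alone made up most of each sum, at 65.5 to 159.5 TPM in DMSO and 5.49 to 26.9 TPM in CCS1477 libraries. Neutrophil markers summed to 1629 to 9382 TPM over the 12 libraries, and Retnlg and Ly6g of the 7 fell, joined by Camp with the mouse as a block. The B cell markers Cd79b, Pax5 and Blnk summed to at most 26.8 TPM, with Cd79b falling, and the T cell markers Cd3d, Cd4, Cd8a and Lck to at most 48.1 TPM. None of the 4 T cell and 3 erythroid markers passed in limma (1 and 0 at an unadjusted p under 0.05), and the erythroid sum was at most 12.96 TPM. Cd79a, Ms4a1, Cd3e, Cd3g, Ncr1, Eomes, C1qa, Hba-a1 and the stromal markers Cdh5, Col1a1 and Col3a1 were not analysed here. The part of these markers in the changes of the class I genes was not tested.

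The libraries of D/F mouse 2 stood apart. This mouse had the highest TPM of the 3 D/F mice for all 9 class I genes with DMSO and for all 9 with CCS1477, where 49.2% of all genes were highest in this mouse under both treatments. Its summed level of 21 interferon-stimulated genes was 403 TPM with DMSO, against 140 and 146 TPM in D/F mice 1 and 3. Its immature myeloid sum with DMSO was the lowest of the D/F mice at 4166 TPM, as were Mpo, Elane, Prtn3 and Ctsg. The other markers of that sum, Kit, Cd34, Flt3, Myb and Meis1, were highest in this mouse with DMSO. Cd34 was 447 TPM there, against 110 and 138 TPM in D/F mice 1 and 3. In T/F, mouse 3 was the highest for all 9 genes under both treatments, where 32.4% of all genes were. Its interferon-stimulated sum with DMSO was 271 TPM, against 160 and 167 TPM in the other T/F mice. The D/F log2 changes of the 9 genes are therefore given with and without mouse 2, while ratios and sums are given for each group with this mouse included.

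The promoters shown are those of the light chain, both classical heavy chains, 1 transporter subunit and the trimming enzyme, since B2m, H2-K1 and H2-D1 hold a pair of boxes that was not found in the other members' promoters searched. RefSeq (GRCm38.p6) gave 8 promoters for 7 of the 9 genes, Nlrc5 and Tap2 not being among them, and the 250 bases before each start are used. The letters searched on both strands were GAAA, any 2 bases and GAAA (interferon response element), TTCNNNGAA (GAS), CCAAT (Y box), TGACG (X2 box, as in the sites of CREB/ATF factors), GGGANTTCC and GGGANTCCC (kB forms). The second kB form and the spacing of the boxes were added after the sequences had been read. Sequences run 5′ to 3′ on the gene's own strand and end at the base before the start. Capitals mark the letters found, with ATTGG being CCAAT on the other strand.
B2m, chr2:122147437-122147686, plus strand: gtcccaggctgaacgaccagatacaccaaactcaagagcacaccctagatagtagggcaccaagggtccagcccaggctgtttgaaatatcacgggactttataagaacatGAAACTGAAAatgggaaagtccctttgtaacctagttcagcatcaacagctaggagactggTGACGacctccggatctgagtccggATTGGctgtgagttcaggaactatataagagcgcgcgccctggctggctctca
H2-K1, chr17:34000348-34000597, minus strand: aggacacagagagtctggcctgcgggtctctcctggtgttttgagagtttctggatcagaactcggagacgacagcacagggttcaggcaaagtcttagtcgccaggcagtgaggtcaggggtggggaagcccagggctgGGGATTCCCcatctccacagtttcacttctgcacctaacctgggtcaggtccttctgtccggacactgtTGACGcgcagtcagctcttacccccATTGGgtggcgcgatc
H2-D1, chr17:35262844-35263093, plus strand: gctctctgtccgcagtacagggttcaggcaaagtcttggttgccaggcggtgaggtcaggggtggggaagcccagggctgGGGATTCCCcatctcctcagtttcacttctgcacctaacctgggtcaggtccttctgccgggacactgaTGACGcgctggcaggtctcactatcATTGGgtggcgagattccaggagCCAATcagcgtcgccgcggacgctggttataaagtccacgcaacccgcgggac
Tap1, chr17:34187306-34187555, plus strand: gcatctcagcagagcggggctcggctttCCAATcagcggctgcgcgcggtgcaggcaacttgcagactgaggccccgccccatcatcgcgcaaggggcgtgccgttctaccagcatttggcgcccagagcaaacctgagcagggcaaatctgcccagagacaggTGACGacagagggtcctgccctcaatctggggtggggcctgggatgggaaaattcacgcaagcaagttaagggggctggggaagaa
Erap1, chr13:74639603-74639852, plus strand: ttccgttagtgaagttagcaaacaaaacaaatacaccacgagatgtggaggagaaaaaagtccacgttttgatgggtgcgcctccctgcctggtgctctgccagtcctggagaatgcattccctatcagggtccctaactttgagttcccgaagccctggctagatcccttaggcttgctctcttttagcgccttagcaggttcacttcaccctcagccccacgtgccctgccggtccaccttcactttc

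In B2m, H2-K1 and H2-D1, TGACG was followed by ATTGG with 20 bases between them, a spacing held by 30 of 32851 promoters (0.0913%), in 26 genes. Of the other class I heavy chains H2-M3 is among the 26, with a log2 change of 0.18 over both genotypes that did not pass (adjusted p = 0.262 from limma), while H2-Q4 and H2-T22, which rose, are not. Whether the promoters searched included those of H2-Q4 and H2-T22 is not recorded here, and the relation of the pair to the changes was not tested. The pair lies at -78 and -53 from the start in B2m, at -41 and -16 in H2-K1 and at -101 and -76 in H2-D1, counted at the first base of each box. RefSeq has another H2-K1 start at 34000333, whose overlapping promoter is not printed, from which the same pair lies at -55 and -30. Alone the letters are common, with CCAAT in 33.85% and TGACG in 17.8% of promoters, and Tap1 holds both at another spacing. H2-K1 and H2-D1 hold GGGATTCCC, a form found in 0.636% of promoters. B2m holds GAAACTGAAA and H2-T23 the same element on the other strand, in 2.98% of promoters. GAS (7.02% of promoters) and GGGANTTCC (1.43%) were in none of the 8. Erap1 held none of the letters. H2-T23 had CCAAT and Tapbp had ATTGG at 2 positions, without TGACG. A match of letters is a description of the sequence and not a bound site.

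The classical heavy chains H2-K1 and H2-D1, which bind the peptide, were higher with CCS1477 in all 6 mice. H2-K1 (ENSMUSG00000061232, chr17:33996017-34000347, GRCm38) was 423, 788 and 408 TPM in DMSO-treated cells of D/F mice 1, 2 and 3 and 851, 1826 and 771 TPM with CCS1477. In T/F mice 1, 2 and 3 it was 363, 345 and 465 TPM with DMSO and 617, 601 and 818 TPM with CCS1477. The T/F groups did not overlap, and the D/F groups overlapped because D/F mouse 2 with DMSO lay above mouse 3 with CCS1477. H2-K1 rose by 0.79 on the log2(TPM + 1) scale in T/F (SE 0.17, adjusted p = 0.0126 from limma). In D/F the difference was 1.04 (SE 0.41, adjusted p = 0.149 from limma), and with the mouse as a block H2-K1 rose by the same 1.04 (SE 0.10, adjusted p = 0.00667).

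H2-D1 (ENSMUSG00000073411, chr17:35262730-35267499) was 341, 543 and 343 TPM with DMSO and 681, 1149 and 644 TPM with CCS1477 in D/F mice 1 to 3. The T/F values were 335, 344 and 392 TPM with DMSO and 561, 578 and 660 TPM with CCS1477. Neither genotype's groups overlapped, and every mouse had a like ratio of CCS1477 to DMSO, in D/F 2.00 ± 0.12 and in T/F 1.68 ± 0.0054 (SD, n = 3). H2-D1 rose by 0.75 in T/F (SE 0.10, adjusted p = 0.00247 from limma). In D/F the difference of 0.99 (SE 0.30) had an adjusted p of 0.0814 without pairing and 0.00587 with the mouse as a block.

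B2m, the light chain shared by all class I heavy chains, was the most abundant of the 9 genes. B2m (ENSMUSG00000060802, chr2:122147686-122153083) was 1436, 2305 and 1370 TPM with DMSO and 1622, 2657 and 1632 TPM with CCS1477 in D/F mice. In T/F mice it was 1261, 1238 and 1505 TPM with DMSO and 1739, 1713 and 2164 TPM with CCS1477. All 6 mice were higher with CCS1477, the T/F groups did not overlap, and the D/F groups did. B2m rose by 0.48 in T/F (SE 0.13, adjusted p = 0.0262 from limma). The D/F difference was 0.21 and did not pass without or with the mouse as a block (adjusted p = 0.677 and 0.113).

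H2-T23 (ENSMUSG00000067212, chr17:36029773-36032855) encodes Qa-1, a nonclassical heavy chain read by NK receptors. It ranged from 46.4 to 138 TPM with DMSO and from 53.7 to 115 TPM with CCS1477 in D/F, and from 43.2 to 73.3 and from 56.0 to 71.9 TPM in T/F. The level was higher with CCS1477 in 1 of 3 D/F mice and 2 of 3 T/F mice, and the groups overlapped. The log2 differences of 0.03 in D/F (95% interval -1.13 to 1.19) and 0.18 in T/F (95% interval -0.34 to 0.70) did not pass.

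**Figure D1:**
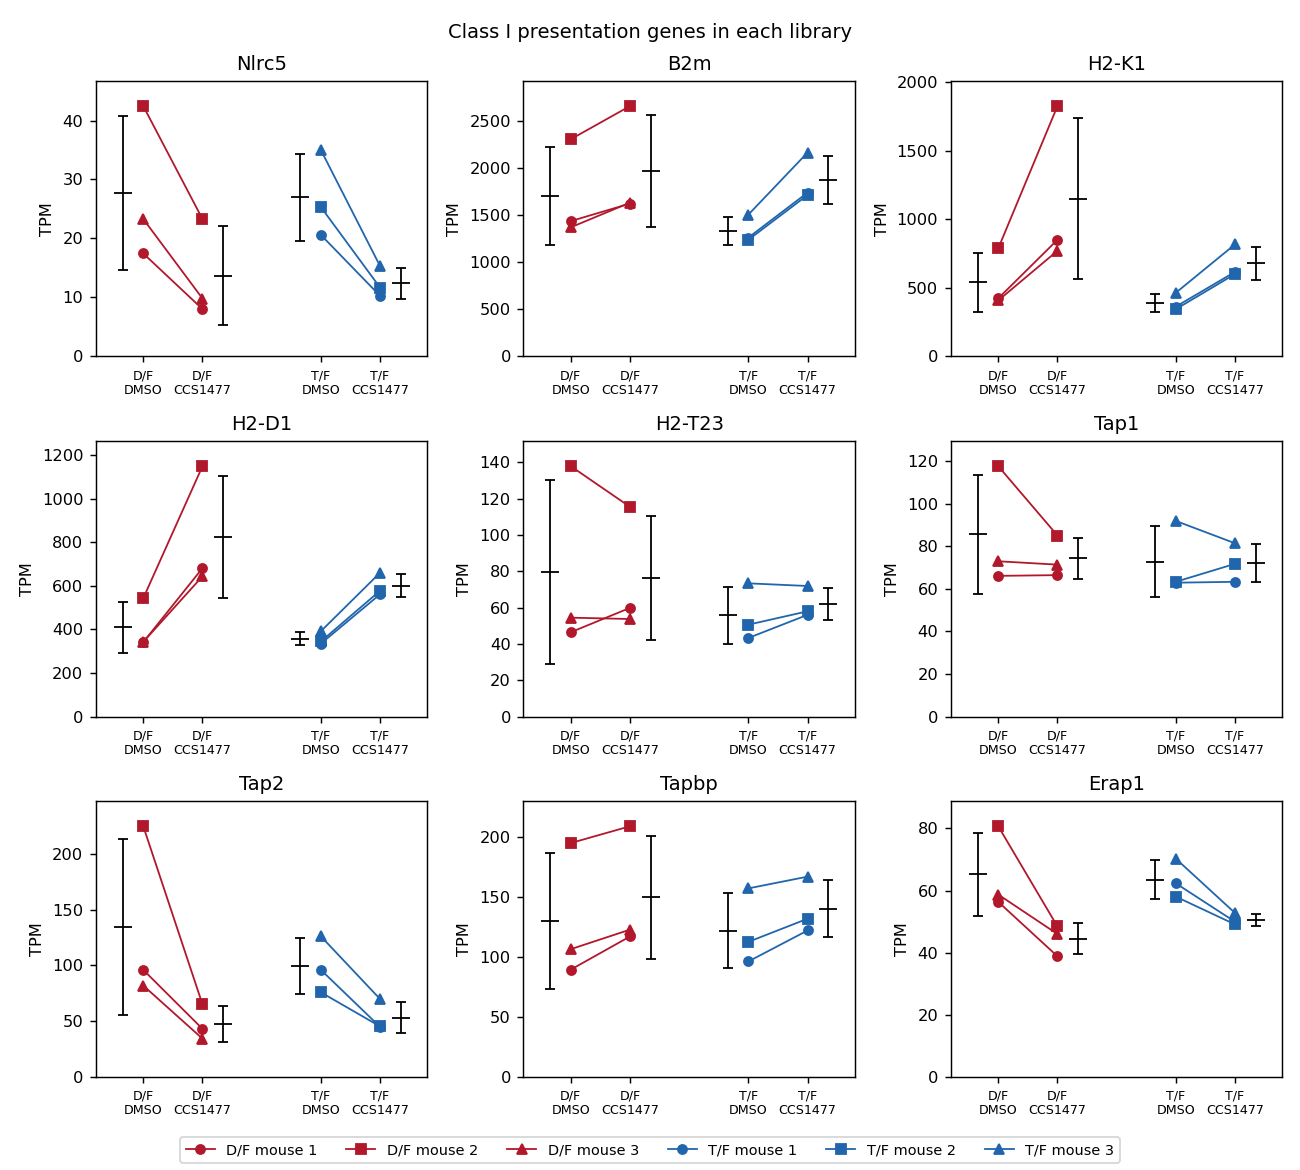
TPM of the 9 genes (y axes, linear, from 0) in the 12 libraries. Lines join the DMSO and CCS1477 cells of 1 mouse, and black marks are the mean and SD of 3 mice. The lines of Nlrc5, Tap2 and Erap1 fall and those of H2-K1, H2-D1 and B2m climb in all 6 mice, and D/F mouse 2 (squares) lies above the other D/F mice in every panel.

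The transporter subunits, whose products form a heterodimer, did not move together. Tap2 (ENSMUSG00000024339, chr17:34203527-34216321) was 95.8, 225 and 81.7 TPM with DMSO and 42.9, 64.8 and 34.1 TPM with CCS1477 in D/F mice. The T/F values were 95.8, 75.7 and 126 TPM with DMSO and 44.6, 45.1 and 69.6 TPM with CCS1477. In both genotypes every CCS1477 library lay below every DMSO library. Tap2 fell by 0.89 in T/F (SE 0.25, adjusted p = 0.0322 from limma). The D/F difference was -1.39 (SE 0.43, adjusted p = 0.0865), and with the mouse as a block Tap2 fell (SE 0.16, adjusted p = 0.00844).

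Tap1 (ENSMUSG00000037321, chr17:34187553-34197225), the other subunit, was 66.1, 118 and 73.0 TPM with DMSO and 66.5, 85.1 and 71.4 TPM with CCS1477 in D/F mice. In T/F mice it was 62.9, 63.4 and 92.0 TPM with DMSO and 63.3, 71.8 and 81.4 TPM with CCS1477. Within each genotype the groups overlapped. The lowest ratio of CCS1477 to DMSO was in the mouse with the highest DMSO level, 0.723 in D/F mouse 2 and 0.886 in T/F mouse 3. In the other mice it was 0.978 and 1.005 (D/F) and 1.007 and 1.133 (T/F). The DMSO level is itself part of this ratio. The log2 differences were -0.16 in D/F (95% interval -0.77 to 0.44) and 0.0048 in T/F (95% interval -0.43 to 0.44), and neither passed. The D/F ratio of Tap2 to Tap1 was 1.49 ± 0.40 with DMSO and 0.628 ± 0.143 with CCS1477, and the T/F ratio 1.36 ± 0.16 and 0.729 ± 0.116 (SD, n = 3). This ratio was above 1 in all 6 DMSO libraries and below 1 in all 6 CCS1477 libraries, with an exact permutation p of 0.1 in each genotype, the smallest that 3 against 3 allows.

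Tapbp (ENSMUSG00000024308, chr17:33915899-33929292), the bridge between transporter and heavy chain, was higher with CCS1477 in all 6 mice by small steps. The ratio of CCS1477 to DMSO averaged 1.18 ± 0.12 for D/F and 1.17 ± 0.10 for T/F mice (SD, n = 3), within groups that ranged from 89.2 to 209 TPM and overlapped. It did not pass within a genotype, with differences of 0.23 (SE 0.36, adjusted p = 0.717) and 0.22 (SE 0.21, adjusted p = 0.442 from limma).

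The aminopeptidase Erap1 (ENSMUSG00000021583, chr13:74639568-74693201), which trims peptides to class I length, was 56.4, 80.7 and 58.7 TPM with DMSO and 38.8, 48.4 and 46.0 TPM with CCS1477 in D/F mice. The T/F values were 62.3, 58.0 and 70.3 TPM with DMSO and 49.9, 49.1 and 52.7 TPM with CCS1477. No CCS1477 library reached the lowest DMSO library of its genotype. Erap1 fell by 0.32 in T/F (SE 0.09, adjusted p = 0.0303 from limma). The D/F difference was -0.53 (SE 0.20, adjusted p = 0.126), and with the mouse as a block Erap1 fell (SE 0.11, adjusted p = 0.0271).

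Nlrc5 (ENSMUSG00000074151, chr8:94434356-94527272), the transactivator, had the lowest level of the 9 genes in all 4 groups. With DMSO it was 17.5, 42.5 and 23.3 TPM in D/F and 20.6, 25.3 and 34.99 TPM in T/F mice, and with CCS1477 8.03, 23.3 and 9.82 TPM in D/F and 10.3, 11.7 and 15.3 TPM in T/F mice. The CCS1477 to DMSO ratio was between 0.421 and 0.549 in every mouse. T/F groups did not overlap, while D/F mouse 2 with CCS1477 stood at the level of the other D/F mice with DMSO. Nlrc5 fell by 1.05 in T/F (SE 0.23, adjusted p = 0.0133 from limma). The D/F difference was -1.01 (SE 0.47, adjusted p = 0.202), and with the mouse as a block Nlrc5 fell (SE 0.10, adjusted p = 0.00736). The transactivator and its targets H2-K1, H2-D1 and B2m had log2 changes of opposite sign in each mouse. Its target Tap1 and the heavy chain H2-T23 had no single direction, each being higher with CCS1477 in 1 of 3 D/F and 2 of 3 T/F mice. The relation of Nlrc5 to these changes was not tested.

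**Figure D2:**
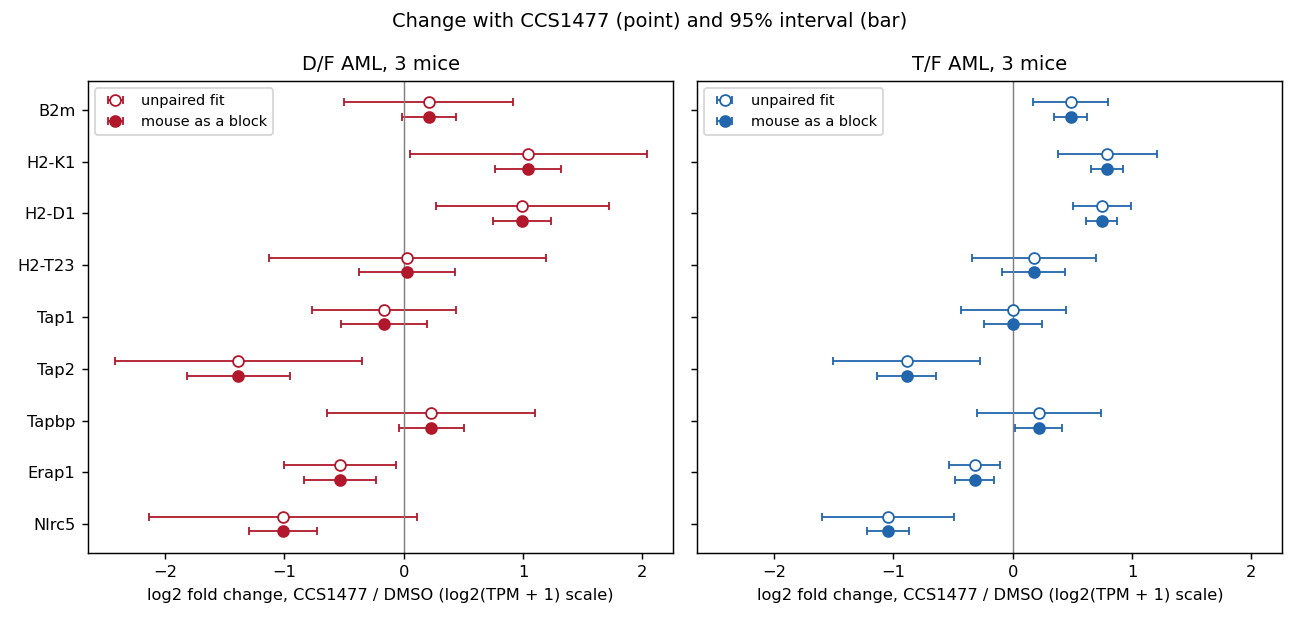
Log2 fold change of CCS1477 against DMSO (x axis, log2(TPM + 1) scale) for the 9 genes, with 1 panel per genotype (3 mice). Open points are the unpaired fit, filled points the fit with the mouse as a block, and bars the 95% interval of limma. The filled bars of H2-K1 and H2-D1 lie above 0 and those of Tap2, Erap1 and Nlrc5 below 0 in both panels.

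Within D/F none of the 9 genes passed in the unpaired limma fit, where 5.14% of all 15501 genes tested were higher and 6.51% lower. At an unadjusted p under 0.05 there were 4 of the 9, and 4712 of the 15501 genes. Since both treatments came from the same mice, the fit with the mouse as a block is given beside it. There 2 of the 9 (H2-K1, H2-D1) were higher, against 21.4% of all genes, and 3 (Nlrc5, Tap2, Erap1) were lower, against 18.0%. Without D/F mouse 2, 3739 genes of the table passed unpaired and 5015 with the block. In both fits the same genes other than Erap1 passed, at 0.96 for H2-K1, 0.95 for H2-D1, -1.10 for Nlrc5 and -1.19 for Tap2. Erap1 was at -0.44 (adjusted p = 0.0814 unpaired) and B2m at 0.21. The other 3 did not pass without this mouse either, with Tap1 at -0.012, Tapbp at 0.29 and H2-T23 at 0.17. By ranges, 1 of the 9 (H2-D1) had all CCS1477 libraries above all DMSO libraries in D/F, as had 19.9% of all genes, and 2 (Tap2, Erap1) had them below, as had 16.7%.

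In T/F 6 of the 9 passed. H2-K1, H2-D1 and B2m were higher, against 25.8% of all 15256 genes tested, and Nlrc5, Tap2 and Erap1 were lower, against 17.6%. The same 6 passed with the mouse as a block, where 31.2% of all genes were higher and 22.9% lower. The groups did not overlap upward for 3 of the 9 (33.5% of all genes) and downward for 3 (22.6%). H2-D1 alone passed without T/F mouse 2 and in a fit that shared the spread of all 4 groups, and H2-D1 and Nlrc5 without T/F mouse 1. Of all genes 3192, 3713 and 3473 passed in these fits, in that order. Without T/F mouse 3, 5 of the 9 and 5122 of all genes passed, and Erap1 did not (-0.28, adjusted p = 0.066). Erap1 thus lost its T/F call whichever mouse was left out. The share of the 9 genes that moved was near that of all genes for rises, and with 9 genes the counts say little about the set as a whole.

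When the genotypes were fitted together, with a term for genotype, 5 of the 9 passed. H2-K1 rose by 0.92 (SE 0.23, adjusted p = 0.00766) and H2-D1 by 0.87 (SE 0.16, adjusted p = 0.00125), the 655th and 773rd largest rises of 15583 genes, and 25.8% of all genes were higher. Tap2 fell by 1.14 (SE 0.27, adjusted p = 0.00489), Nlrc5 by 1.03 (SE 0.27, adjusted p = 0.00894) and Erap1 by 0.43 (SE 0.11, adjusted p = 0.00649 from limma), among 19.6% of all genes that were lower. Tap2 and Nlrc5 were the 730th and 868th largest falls. With the mouse as a block B2m (0.35, adjusted p = 0.00302) and Tapbp (0.22, adjusted p = 0.0121) passed as well, which made 7 of 9, against 34.5% of all genes higher and 25.9% lower. H2-T23 and Tap1 did not pass in either fit. The median log2 change of the 9 was 0.10, beside 0.07 for all genes tested.

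The responses of the genotypes were not shown to differ. The test of the difference passed for none of the 9 genes and for 0.0% of 15583 genes in limma, with 659 genes and none of the 9 at an unadjusted p under 0.05. With the mouse as a block it also passed for 0 genes, and 2293 had an unadjusted p under 0.05. B2m was among these with a difference of 0.27 (95% interval 0.08 to 0.47, adjusted p = 0.245 from limma), where a positive value stands for the larger value in T/F. So were H2-D1 at -0.25 (-0.46 to -0.04, adjusted p = 0.287) and Tap2 at 0.50 (0.02 to 0.98, adjusted p = 0.329). For Nlrc5 the difference was -0.03 (95% interval -0.32 to 0.26 with the mouse as a block), and for H2-K1 -0.25 (-0.51 to 0.00).

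Levels did not differ between the genotypes by test either. Of the 9, none passed between T/F and D/F with DMSO, where 0.0328% of 15265 genes did, or with CCS1477, where 0.0329% of 15199 did, by limma. No member had an unadjusted p under 0.05, as had 939 and 1643 of all genes. With DMSO 8 of the 9 were lower in T/F, B2m by a log2 difference of -0.32 (SE 0.23) and H2-K1 by -0.41 (SE 0.29), but without D/F mouse 2 only 2 of the 9 were lower. With CCS1477 7 of 9 were lower in T/F, led by H2-K1 at -0.66 (SE 0.35) and H2-D1 at -0.41 (SE 0.24). Without D/F mouse 2 it was 2 of 9. The median log2 difference of all genes was also below 0, at -0.039 with DMSO and -0.034 with CCS1477, beside -0.21 and -0.042 for the 9.

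The order of the levels changed with the drug in its lower part. In each group B2m stood first, followed by H2-K1, H2-D1 and then a step down to the remaining genes. With DMSO, H2-D1 lay above all libraries of the next gene and Nlrc5 below all libraries of the gene before it, while Tap1, Tap2, Tapbp, H2-T23 and Erap1 overlapped with their neighbours. With CCS1477 Tapbp stood clear above the other genes of that middle set in both genotypes, and Tap2 dropped to 7th place of 9 beside Erap1, with which its libraries overlapped. H2-K1 exceeded H2-D1 in all 12 libraries, but the ranges of the 2 genes overlapped in every group.

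The heavy chain genes have near-identical sequences, so the split of reads between them by pseudoalignment is uncertain, and they were also summed. The summed TPM of H2-K1, H2-D1, H2-T23 and 10 other H2 class I heavy chains was 1431 ± 553 in DMSO-treated and 2664 ± 1224 in CCS1477-treated D/F cells, and the T/F sums were 1025 ± 158 and 1672 ± 239 (SD, n = 3). The sum was higher in all 6 mice, with ratios of 1.73 to 1.97 in D/F and 1.61 to 1.65 in T/F, and H2-K1 and H2-D1 made up 66.9% of it with DMSO and 74.5% with CCS1477 (D/F), or 73.1% and 76.5% (T/F). Heavy chain and light chain moved by unequal steps. H2-K1 stood to B2m at 0.311 ± 0.026 with DMSO and 0.561 ± 0.112 with CCS1477 (D/F), or 0.292 ± 0.015 and 0.361 ± 0.015 (T/F). H2-D1 stood to B2m at 0.241 ± 0.0079 with DMSO and 0.416 ± 0.019 with CCS1477 (D/F), or 0.268 ± 0.0092 and 0.322 ± 0.016 (T/F). None of these ratios overlapped between treatments within a genotype (exact permutation p = 0.1 each, the smallest possible with n = 3).

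**Figure D3:**
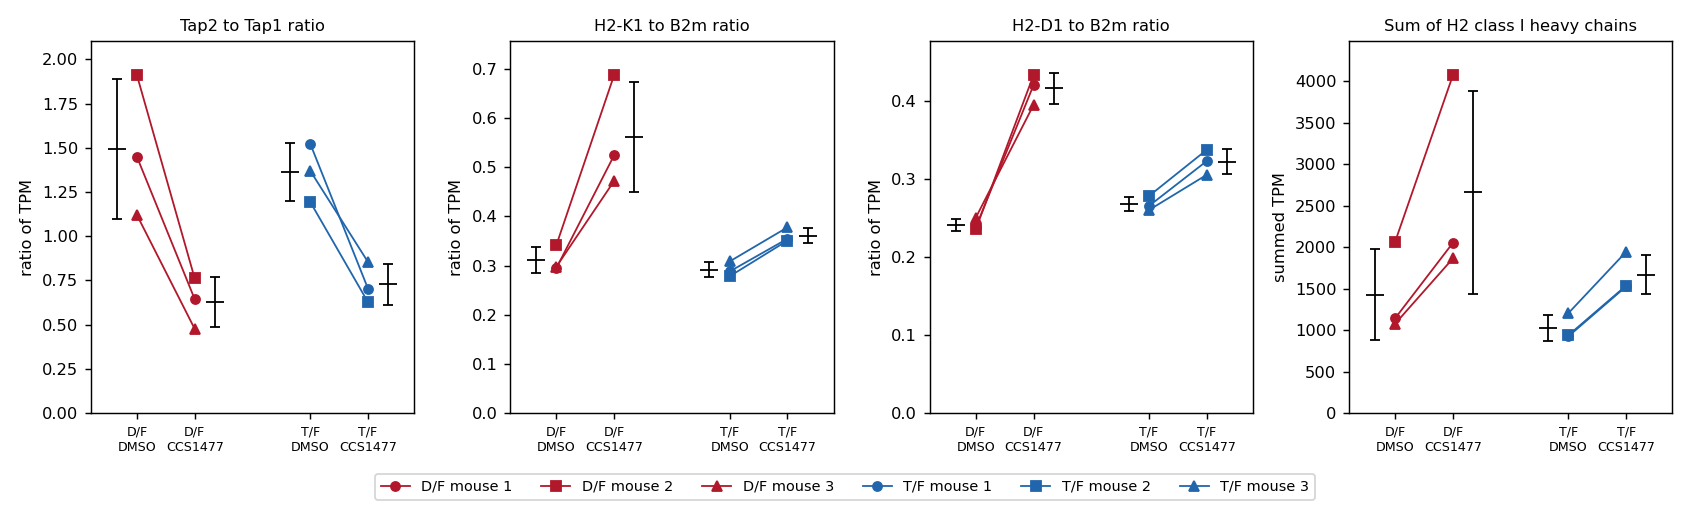
Ratios of TPM of Tap2 to Tap1, H2-K1 to B2m and H2-D1 to B2m, and the summed TPM of the H2 class I heavy chains (y axes, linear, from 0), in the 12 libraries. Lines join the cells of 1 mouse, and black marks are the mean and SD of 3 mice. The Tap2 to Tap1 ratio falls below 1 with CCS1477 in all 6 mice, and the other panels climb in all 6.

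Other genes of the pathway were followed in lists, all over both genotypes, where 25.8% of all genes rose and 19.6% fell (34.5% and 25.9% with the mouse as a block) and the median log2 change of all genes was 0.07. Of 12 other class I and class I-like heavy chains 3 rose and 1 fell (median 0.28), shares near or under those of all genes. H2-Q4 rose by 1.14 (SE 0.25, adjusted p = 0.0034) and H2-T22 by 0.86 (SE 0.15, adjusted p = 0.000701), as H2-K1 and H2-D1 did, whereas H2-Q2 fell by 1.14 (SE 0.14, adjusted p = 9.11e-05) from levels of 2.16 to 4.797 TPM with DMSO. With the mouse as a block 7 of the 12 rose, a share above the 34.5% of all genes, and 2 fell, a share under the 25.9%.

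Of 14 proteasome and peptidase genes that supply peptides 6 fell, 1 rose and 7 did not pass (median -0.33), and with the mouse as a block 8 fell and 3 rose. Psmb8 and Psmb10, catalytic subunits of the immunoproteasome, fell by 0.75 (SE 0.12, adjusted p = 0.000472) and 0.76 (SE 0.11, adjusted p = 0.000208). Both were lower in all 6 mice, and both passed in D/F also without pairing (adjusted p = 0.0388 for Psmb8 and 0.0241 for Psmb10 from limma). The leucine aminopeptidase Lap3 fell by 0.96 (SE 0.14, adjusted p = 0.000258). Psmb9 was not analysed here. Of 7 chaperones of peptide loading 1 fell, and all 7 had lower values (median -0.19). That gene was Uggt1, the glucosyltransferase that checks folding, at -0.19 (SE 0.07, adjusted p = 0.0329). Calr, calreticulin, was 1402 to 2601 TPM in DMSO-treated D/F cells and 1033 to 2080 TPM with CCS1477 and did not pass at -0.38 (adjusted p = 0.144), nor did calnexin, Canx, at -0.29 (adjusted p = 0.0997). With the mouse as a block 5 of the 7 fell, Calr (adjusted p = 0.000978) and Canx (adjusted p = 0.000732) among them.

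Of 23 genes for factors and receptors that act on class I promoters, 8 rose and 5 fell (median 0.10), and with the mouse as a block 11 rose and 7 fell. Among the partners of Nlrc5, Rfxap rose by 0.47 (SE 0.08, adjusted p = 0.000496) and Nfyc by 0.45 (SE 0.06, adjusted p = 0.000195). Rfx5, named here after its values were seen, fell by 0.68 (SE 0.19, adjusted p = 0.0134 from limma). Of the other listed partners, also named after their values were seen, Rfxank, Nfya and Nfyb were higher in all 6 mice. Atf1 was lower in all 6, and Creb1 was higher in 2 of 3 D/F mice and lower in 3 of 3 T/F mice. The interferon-γ receptor chain Ifngr1 fell by 0.95 (SE 0.11, adjusted p = 4.57e-05), from 131 to 203 TPM in DMSO libraries to 71.8 to 95.4 TPM in CCS1477 libraries. Irf1, an activator of Nlrc5 and class I genes, was higher in all 6 mice at 0.31 but passed only with the mouse as a block (adjusted p = 0.187 without and 0.00699 with it).

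Of 21 interferon-stimulated genes 1 rose and 2 fell (median -0.06), and with the mouse as a block 4 rose and 6 fell. Irf7 rose by 1.11 (SE 0.26, adjusted p = 0.00472), the guanylate-binding protein gene Gbp3 fell by 1.24 (SE 0.23, adjusted p = 0.0012) and Oasl1 by 1.12 (SE 0.42, adjusted p = 0.048). Of 10 class II presentation genes 5 fell, and all 10 had lower values (median -1.21), and with the mouse as a block 8 fell. Ciita, the class II counterpart of Nlrc5, fell by 2.50 (SE 0.40, adjusted p = 0.000402), from 4.45 to 39.0 TPM in DMSO libraries to 0.679 to 5.48 TPM in CCS1477 libraries. H2-DMb2 fell by 1.92 (SE 0.24, adjusted p = 9.11e-05) and H2-DMa by 1.11 (SE 0.23, adjusted p = 0.0022). Both load peptides on class II molecules. All class I and class II values here come from the same 12 libraries, in which the monocyte and dendritic cell markers above also fell, and the part of those cells was not tested.

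**Figure D4:**
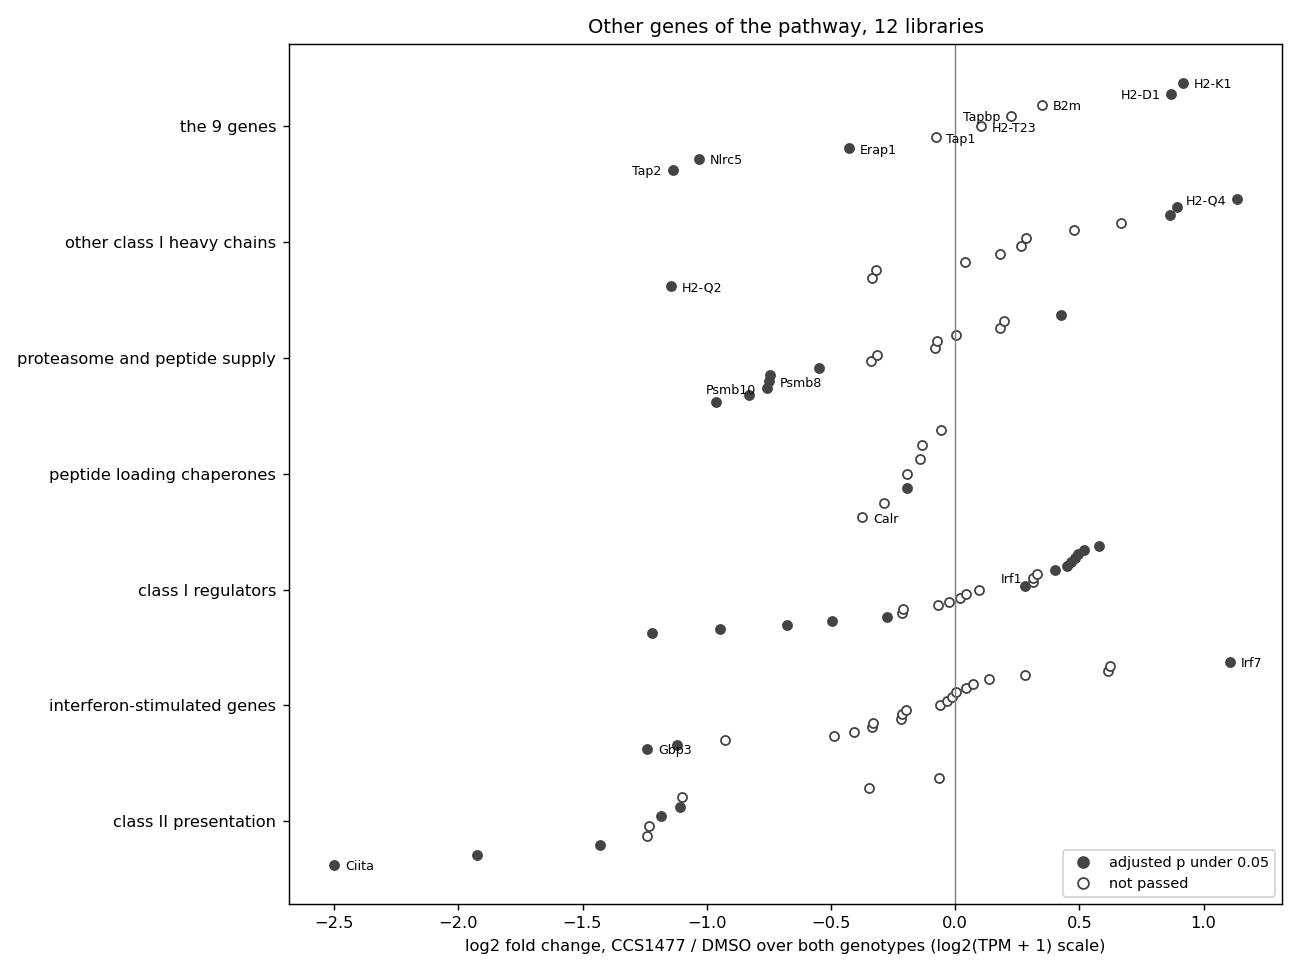
Log2 fold change of CCS1477 against DMSO over both genotypes (x axis, log2(TPM + 1) scale, 12 libraries, unpaired limma fit) for the 9 genes and the other genes of the pathway by list. Each point is 1 gene, filled where the adjusted p was under 0.05. Class II genes lie at or below 0, and the 9 class I presentation genes spread from Tap2 at -1.14 to H2-K1 at 0.92.

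The genes whose pattern over the 12 libraries was most like a member's were found by the root-mean-square distance between log2(TPM + 1) values, each centred on its own mean, among the 11604 genes that averaged 5 TPM or more. Nearest to Nlrc5 were Tcf7 (0.16), Cd84 (0.18) and Kctd14 (0.18), and Tap2 was the 61st nearest. The nearest to H2-K1 were 5031425E22Rik (0.12), Gm15789 (0.12) and H2-Q4 (0.15), with H2-D1 the 17th. Nearest to B2m were Scaper (0.07), Rufy2 (0.08) and Pot1b (0.08), and to Tap1 they were Adam17 (0.11), Gm11455 (0.11) and Myo18a (0.11). From Nlrc5, H2-K1 was the 10665th and B2m the 5839th nearest of the 11604. The 12 libraries share 6 mice, so these distances are a description only.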

How the data were processed

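The 12 libraries are DMSO- and CCS1477-treated c-Kit+ cells from 3 mice of each genotype, the mice being the replicates. The authors deposited TPM per Ensembl gene (kallisto and mm10 per the labels' processing notes, AltAnalyze 2.1.3 by the study's methods), not pooled. The annotation and settings are not given in the sources used here. The labels name both ribosome depletion and an mRNA kit. Every gene reaches 2.00 TPM in some library, libraries sum to 914204 to 931697 TPM, and TPM keeps no read numbers, so depth is unknown and precision rests on the spread between 3 mice.

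limma 3.58.1 (R 4.3.3) was applied to log2(TPM + 1) values (eBayes, no trend) of genes averaging 1 TPM or more in a group compared. p-values are two-sided and Benjamini-Hochberg adjusted over all genes tested, and passed means an adjusted p under 0.05 at any fold. Fold changes on this scale understate those of low genes. The fits were tested on simulated libraries drawn independently, without a mouse effect, so that test cannot show how the block behaves with paired cells. The unpaired fit is the main one. DMSO and CCS1477 cells with 1 number are from 1 mouse by the labels, and deviations from group means correlated at 0.539, 0.669 and 0.541 (D/F) and 0.383, 0.354 and 0.496 (T/F) within a mouse and at most 0.141 between mice, so the mouse as a block is given where it changes a call or a count of calls. Single values had exact two-sided permutation tests.

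Named were all 9 genes, Irf1, Psmb8, Psmb9, Psmb10, Calr, Ciita, the 3 genes of each pathway list with the lowest p over both genotypes, and the 3 nearest genes of 4 members. A further gene of this rule is not reported here. Cell markers were counted by list, with fewer named. Positions are from GENCODE vM21 (GRCm38) and promoters from RefSeq. The rule for the 9 genes uses no measured value, but they and the lists were chosen with earlier results of these data known. Alternatives are in the closing section.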

Additional observations from a re-analysis of the deposited data

How the results depend on the processing

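In D/F the unpaired count of 0 members passing became 5 with the replicate block (the mouse), 5 with the block after rescaling to the median gene, 4 in the shared fit of 4 groups, 4 with the block and D/F mouse 2 left out, and 0 to 4 with 1 mouse left out, 4 being without mouse 2. Genes of the whole table that passed in D/F numbered 1805 unpaired, 6098 with the block and 5982 with the block after rescaling. They numbered 4940 in the shared fit, 5015 with the block and mouse 2 left out, and 3739 unpaired without mouse 2. Without D/F mouse 1 or 3 no gene of the table passed in limma (lowest adjusted p 0.0771 and 0.172). In T/F the count of 6 members became 1 in the shared fit and 1 to 5 with 1 mouse left out. Genes of the whole table passing there went from 6620 to 3713 in the shared fit and to 3192 to 5122 with 1 mouse left out. Over both genotypes the count of members stayed at 5 to 7, where 7061 genes of the table passed unpaired and 9403 with the block.

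H2-T23 in D/F turned to -0.025 after rescaling, without and with the block, and ran from -0.14 to 0.17 with 1 mouse left out. Tap1 in T/F turned to -0.055 after rescaling, without and with the block, and ran from -0.082 to 0.094 with 1 mouse left out. The T/F minus D/F difference of Nlrc5 turned to 0.054 with the block and D/F mouse 2 left out, and ran from -0.11 to 0.054 with 1 mouse left out. None of these passed in any fit, and the cause was not tested. Beyond the calls given in the report, the block changed no other call of a member. The members that passed kept their direction under rescaling, a trended prior, quantile normalization, a stricter filter (5 TPM) or none, and a pseudocount of 0.1. The blocked fits with rescaling and with D/F mouse 2 left out were chosen after seeing the data. With 3 mice per group, a missed threshold does not show that levels were alike.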
